A study of Mus musculus with 14 samples.

Results

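The genes described here are those of mitochondrial complex I whose symbol starts with Nduf, that is the subunits of NADH:ubiquinone oxidoreductase that are encoded in the nucleus and the factors that assemble it. Members were all genes with an array probe set (a group of short probes for 1 transcript) that the platform annotation gives a single symbol with this prefix, and where a gene had several, the one with the highest mean over the 14 arrays was used. There were 44 such genes, with 88 probe sets, among 18193 genes with a single symbol. They fall into 6 core subunits, 30 accessory subunits and 8 assembly factors.

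Messenger RNA was measured in white fat from under the skin (subcutaneous white adipose tissue) of C57BL/6 males aged 12 weeks. In 7 samples (exercised) the mice had lived in cages with a running wheel for 11 days, and in 7 samples (sedentary) the mice were controls without exercise. The values are signals in arbitrary units, scaled to the same trimmed mean of 1500 on each array. Differences are on a log2(signal + 46.7) scale, exercised minus sedentary, and a gene is said to have risen or fallen where limma's p-value, adjusted over all 12945 genes that passed a filter on low signal, was under 0.05. No label states that arrays came from separate mice, so the p-values rest on the spread from sample to sample, part or all of which may be technical. Defining transcripts of adipocytes were strong on every array, with Adipoq (adiponectin) at 55514 to 69118 in exercised and 48832 to 68456 in sedentary samples.

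Complex I is the entry point of the respiratory chain. It takes electrons from NADH, passes them along a flavin and iron-sulfur clusters to ubiquinone, and pumps protons across the inner mitochondrial membrane. Its core subunits carry these reactions and have counterparts in bacteria, the accessory subunits surround and stabilise the core, and assembly factors help to build the enzyme without being part of it. The peripheral arm holds an NADH-oxidising (N) and a ubiquinone-reducing (Q) module, and the membrane arm (P) pumps. White fat cells hold few mitochondria, whereas brown and beige fat cells are packed with them.

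Promoter sequences (RefSeq, mouse build GRCm38.p6, 250 bases before to 50 after an annotated start) matched 39 of the 44 members by symbol, with 41 starts. Ndufa2, Ndufa4l2, Ndufaf6, Ndufb9 and Ndufs1 were not matched. Motifs linked to mitochondrial genes were searched on both strands: TCAAGGTCA for estrogen-related receptors, the palindromic consensus of NRF1, CCGGAAGT for ETS factors such as GABPA, TGACGTCA for CREB and AAGATGGC for YY1. No matches overlapped among the members. The YY1 letters stood in 7 of the 41 member promoters (17.1%), against 3.97% of the 13310 promoters of all genes tested and 2.75% of 32851 promoters in all. The NRF1 consensus stood in 2 (4.88%, against 1.9% of the promoters of genes tested), those for CREB in 2 (4.88%, against 2.76%), the ETS letters in 1 (2.44%, against 7.11%) and the estrogen-related receptor letters in 0 (against 0.301%). A match says only that these letters are in the window. The windows of 30 bases below are shown because they hold the motif found most often in these genes, and that of Ndufs3 because it was among the 4 members with the largest differences that held any motif. Capitals mark the match, and all are printed 5′ to 3′ on the gene's strand.
Ndufc1: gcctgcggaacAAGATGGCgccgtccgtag
Ndufa9: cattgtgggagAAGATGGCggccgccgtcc
Ndufs7: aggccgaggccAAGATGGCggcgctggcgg
Ndufb8: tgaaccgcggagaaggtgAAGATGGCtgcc
Ndufs4: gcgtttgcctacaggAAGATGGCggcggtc
Ndufa3: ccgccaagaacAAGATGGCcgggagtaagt
Ndufaf8: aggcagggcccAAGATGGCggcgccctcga
Ndufs3: tgcacatttccACTTCCGGtccgtgccctt
All 7 YY1 matches lay on the gene's own strand after the annotated start, where 2.09% of the promoters of all genes tested have a match, and the letters contain an ATG. They began 23 bases into Ndufc1 (chr3:51408915-51408944, minus strand), 30 into Ndufa9 (chr6:126849097-126849126, minus), 25 into Ndufs7 (chr10:80249462-80249491, plus) and 39 into Ndufb8 (chr19:44555393-44555422, minus), counting the start as base 1. In Ndufs4 (chr13:114388045-114388074, minus) the match began at base 36, in Ndufa3 (chr7:3617384-3617413, plus) at base 23 and in Ndufaf8 (chr11:120098933-120098962, plus) at base 11. The ETS match of Ndufs3 (chr2:90904703-90904732, minus) was on the opposite strand, from base 1. Of the 39 matched members 28 rose in exercised fat, and 6 of the 7 with the YY1 letters did.

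Most complex I genes were higher in exercised than in sedentary fat. Of the 44 members 43 passed the filter, and 30 of the 43 rose, against 4.0% of all genes tested. By limma 0 of 43 fell, against 1.53% of all genes, and also 0 at an unadjusted p under 0.05, where 10.5% of all genes were lower. At that unadjusted level 34 members were higher, against 11.3% of all genes. The median difference was 0.46, a 1.37-fold level, and the median over all genes tested was -0.03. Differences ran from -0.16 to 0.78, and 42 of the 43 were positive, as were 45.0% of all genes. In 19 members every exercised signal lay above every sedentary one, against 1.95% of all genes tested. Ndufb4 was the member that failed the filter, with a signal of 144.1 to 482.8 (median 369.8) in exercised and 325.7 to 491.3 (median 421.7) in sedentary samples. By role, the count and the size of the difference were highest for core subunits and lowest for assembly factors: 6 of 6 core subunits rose (median 0.62), 23 of 29 accessory subunits (median 0.46) and 1 of 8 assembly factors (median 0.20). Whether the roles differ was not tested.

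**Figure D1:**
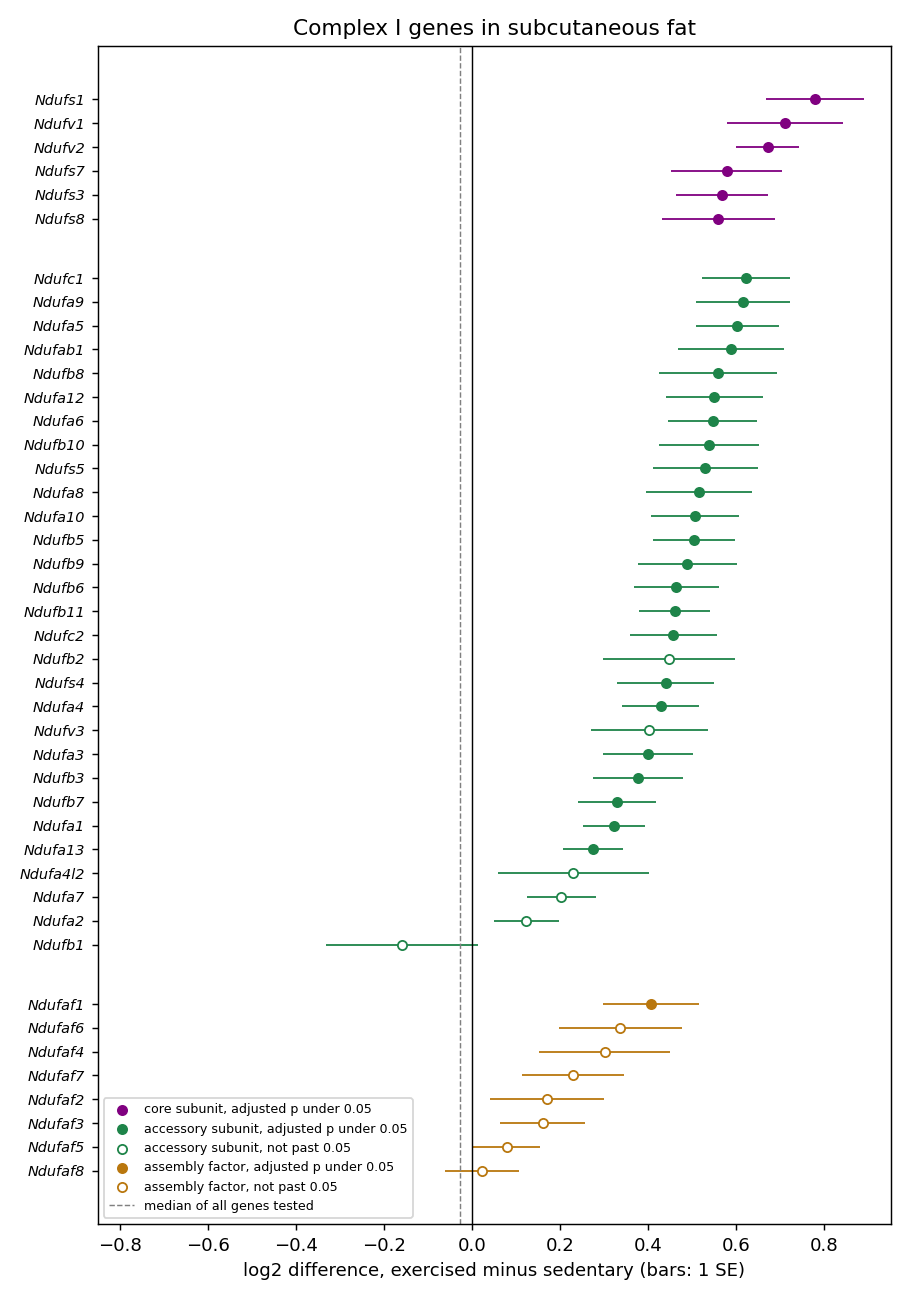
Log2 difference, exercised minus sedentary, of the 43 complex I genes that passed the filter, by role and in order of size, with bars of 1 SE. Filled points passed an adjusted p of 0.05 and open points did not; all 6 core subunits lie between 0.56 and 0.78, and the dashed line is the median of all genes tested, -0.03.

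All 6 measured core subunits that are encoded in the nucleus rose, by 1.47 to 1.72-fold. Ndufs1, the largest subunit and a carrier of several iron-sulfur clusters in the N module, had signals of 9995 to 15090 (median 13436) in exercised and 5604 to 8720 (median 7862) in sedentary fat. The groups did not overlap, and its difference of 0.78 (SE 0.11, limma adjusted p = 0.00208) was at the 98.0th percentile of all genes. Ndufv1 binds NADH and the flavin at which electrons enter. Its signal was 15116 to 23732 (median 19602) in exercised and 8015 to 14090 (median 12862) in sedentary samples, without overlap (0.71, SE 0.13, limma adjusted p = 0.00651). Its partner Ndufv2, an iron-sulfur protein, had the smallest p-value of the family. Exercised samples had 25553 to 30226 (median 27704) and sedentary ones 14507 to 19810 (median 17687), a difference of 0.67 (SE 0.07, limma adjusted p = 0.000555).

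The core subunits of the Q module differed by 0.56 to 0.58. Ndufs3, a subunit of this module without a cofactor, had 16339 to 23346 (median 19052) in exercised and 9476 to 15142 (median 13274) in sedentary fat, again without overlap (0.57, SE 0.10). Ndufs7 and Ndufs8 carry the last iron-sulfur clusters before ubiquinone. Ndufs7 had 11839 to 18992 (median 16534) in exercised samples against 7177 to 12767 (median 10867) in sedentary samples, and 6 of 7 exercised values were above all sedentary ones (0.58, SE 0.13). Ndufs8 had 15529 to 27015 (median 23103) against 11565 to 17676 (median 14300), with 6 of 7 exercised values above all sedentary ones (0.56, SE 0.13). Exercised sample 2 was the low one in both genes. A weaker probe set of Ndufs8 differed by only 0.20 (SE 0.09, limma adjusted p = 0.239, all 27027 probe sets tested), while the other passing probe sets of core subunits were called too.

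**Figure D2:**
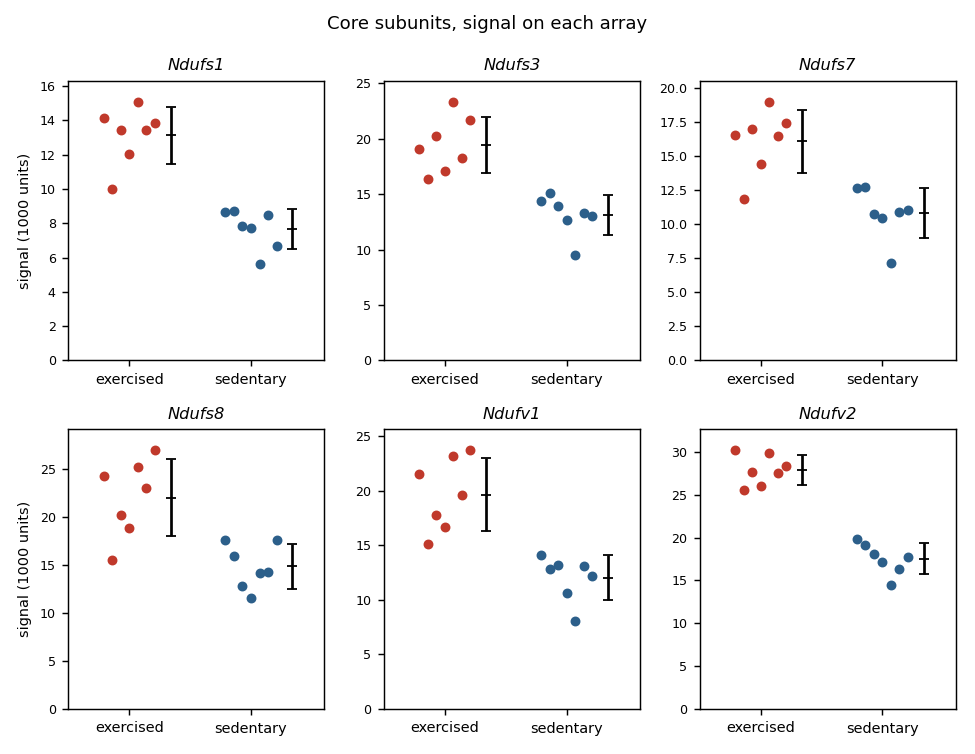
Signal of the 6 core subunits (in 1000 units, axes from 0) on each of the 7 exercised and 7 sedentary arrays, in replicate order, with the mean and SD in black. The groups are separate for Ndufs1, Ndufs3, Ndufv1 and Ndufv2, and exercised sample 2 overlaps the sedentary range for Ndufs7 and Ndufs8.

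Of the 29 accessory subunits tested, 23 rose and the groups were separate for 14. The 5 with the largest difference follow. Ndufc1, a small subunit of the membrane arm, had 24793 to 32326 (median 30705) in exercised and 14229 to 22292 (median 19549) in sedentary fat (0.62, SE 0.10, limma adjusted p = 0.00304). Ndufa9, which holds the arms together near the ubiquinone site, had 20528 to 28322 (median 24169) against 11214 to 18062 (median 16388), a difference of 0.61 (SE 0.11). Ndufa5 of the Q module had 10348 to 13724 (median 13189) against 6631 to 9402 (median 8830), a difference of 0.60 (SE 0.09). None of these 3 overlapped between groups. Ndufab1, the mitochondrial acyl carrier protein, which also serves lipoic acid synthesis, had 21994 to 29770 (median 25968) in exercised and 11490 to 20434 (median 18282) in sedentary samples (0.59, SE 0.12, limma adjusted p = 0.0115). Ndufb8 of the membrane arm had 19793 to 28009 (median 24611) against 10633 to 22060 (median 17856), with an overlap (0.56, SE 0.13). Ndufb8 kept its call in 19 and Ndufab1 in 26 of 29 alternative settings; for both the call was lost with the weakest passing probe set (differences of 0.15 and 0.24). Of the 4 weaker probe sets of Ndufab1, 1 was called, with a difference of 0.86 (SE 0.18, adjusted p = 0.015, all probe sets tested), and 3 were not, at 0.24 to 0.43.

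By position, 6 of 9 tested subunits of the N module rose (median 0.55), 4 of 4 of the Q module (median 0.57), 9 of 9 in the proximal membrane arm (median 0.51) and 8 of 10 in its distal part (median 0.46). Among the 6 accessory subunits of the N module only 3 rose: Ndufa12, Ndufa6 and Ndufs4, the last a subunit needed for a stable N module (0.44, SE 0.11). Ndufa2 had 15236 to 20067 (median 16260) in exercised and 13534 to 17382 (median 15707) in sedentary fat, a difference of 0.12 (SE 0.07, limma adjusted p = 0.347). Ndufa7 differed by 0.20 (SE 0.08, adjusted p = 0.148), and its 4 other probe sets by 0.14 to 0.36, none of them called. Ndufv3, at 0.40 (SE 0.13, limma adjusted p = 0.0925), spread more widely: 20388 to 32609 in exercised and 12726 to 23191 in sedentary samples.

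The remaining accessory subunits not called were Ndufb2, Ndufb1 and Ndufa4l2. Ndufb2 differed by 0.45 (SE 0.15, limma adjusted p = 0.0965), with 9419 to 13785 (median 12004) in exercised and 5207 to 10942 (median 8090) in sedentary fat. Ndufb1, represented by a single weak probe set, was the only one of the 43 tested members with a negative difference (-0.16, SE 0.17, limma adjusted p = 0.615). It had 415.0 to 988.1 (median 656.4) in exercised and 634.1 to 997.9 (median 748.3) in sedentary samples, which overlapped. Ndufa4 is named as a complex I gene, but its protein is known as a subunit of cytochrome c oxidase. It rose without overlap, with 25605 to 33532 (median 29123) in exercised and 17166 to 24490 (median 22713) in sedentary fat (0.43, SE 0.09, limma adjusted p = 0.0111). Its hypoxia-induced relative Ndufa4l2 had 827.4 to 1330 (median 1063) against 475.4 to 1298 (median 989.8), a difference of 0.23 (SE 0.17, limma adjusted p = 0.46). Without this pair 22 of 27 accessory subunits rose.

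Some subunits could be seen only through probe sets that the annotation gives to several genes, so their signals cannot be assigned to 1 gene. The probe set shared by Ndufs6 and Ndufs6b had 14503 to 19998 (median 18098) in exercised and 10199 to 14670 (median 13094) in sedentary fat (0.46, SE 0.09, limma adjusted p = 0.0123). Of 2 strong probe sets for Ndufb4, Ndufb4b and Ndufb4c, 1 rose (0.47, SE 0.12, adjusted p = 0.0335) and the other differed by 0.48 (SE 0.14, adjusted p = 0.0664). The stronger of 2 probe sets for Ndufa11 and Ndufa11b differed by 0.21 (SE 0.09, adjusted p = 0.24). Over the members, 39 of 40 further single-symbol probe sets had the sign of the chosen one. The exception was a weak probe set of Ndufb2 (-0.06, SE 0.14). Of the 32 that belong to genes that rose 23 were called, where 2.78% of all probe sets rose. Those not called included weaker probe sets of Ndufa10 (0.42, SE 0.41), Ndufs4 (0.32, SE 0.12) and Ndufc2 (0.39, SE 0.11, and 0.27, SE 0.16).

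Most assembly factors did not pass the test. Ndufaf1, which helps to build the proximal membrane arm, was the only one of 8 that rose by the probe set chosen for it. Its signal was 4292 to 5337 (median 4720) in exercised and 2371 to 4216 (median 3722) in sedentary fat, with no overlap (0.41, SE 0.11, limma adjusted p = 0.0419). That call held in 13 of 29 alternative settings (adjusted p 0.0174 to 0.162), and 9 of the 14 single arrays ended it when left out.

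Ndufaf3 and Ndufaf4 bind each other and act on the Q module. Ndufaf4 had 2721 to 3972 (median 3483) in exercised and 1755 to 3725 (median 2810) in sedentary fat, a difference of 0.30 (SE 0.15, limma adjusted p = 0.25). Its other probe set, lower in mean signal, had 2368 to 3155 (median 2826) in exercised and 1384 to 2137 (median 1700) in sedentary samples, without overlap (0.68, SE 0.10, limma adjusted p = 0.00193, all probe sets tested). The 2 probe sets thus give different calls, and their mean differed by 0.49 (SE 0.09, adjusted p = 0.00833). Ndufaf3 had 3435 to 4096 (median 3656) against 2477 to 4125 (median 3303), which overlapped (0.16, SE 0.10, adjusted p = 0.349).

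The other assembly factors were not called, and their groups overlapped. Ndufaf2, a paralog of the subunit Ndufa12 that acts late in assembly, had 1358 to 1863 (median 1630) in exercised and 943.6 to 1846 (median 1441) in sedentary fat (0.17, SE 0.13). Ndufaf6, needed for the subunit ND1 in human cells, had 955.7 to 1571 (median 1200) against 647.6 to 1250 (median 973.0), a difference of 0.34 (SE 0.14, limma adjusted p = 0.174). The methyltransferase Ndufaf7 had 1638 to 2699 (median 2176) against 1380 to 2177 (median 1907), with a difference of 0.23 (SE 0.12). Ndufaf5, which modifies Ndufs7 in human cells, had 1214 to 1491 (median 1367) in exercised and 1150 to 1430 (median 1284) in sedentary samples (0.08, SE 0.08). Its partner Ndufaf8 had 3807 to 4750 (median 4448) against 3775 to 5171 (median 4262), the smallest difference of the family (0.02, SE 0.08).

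**Figure D3:**
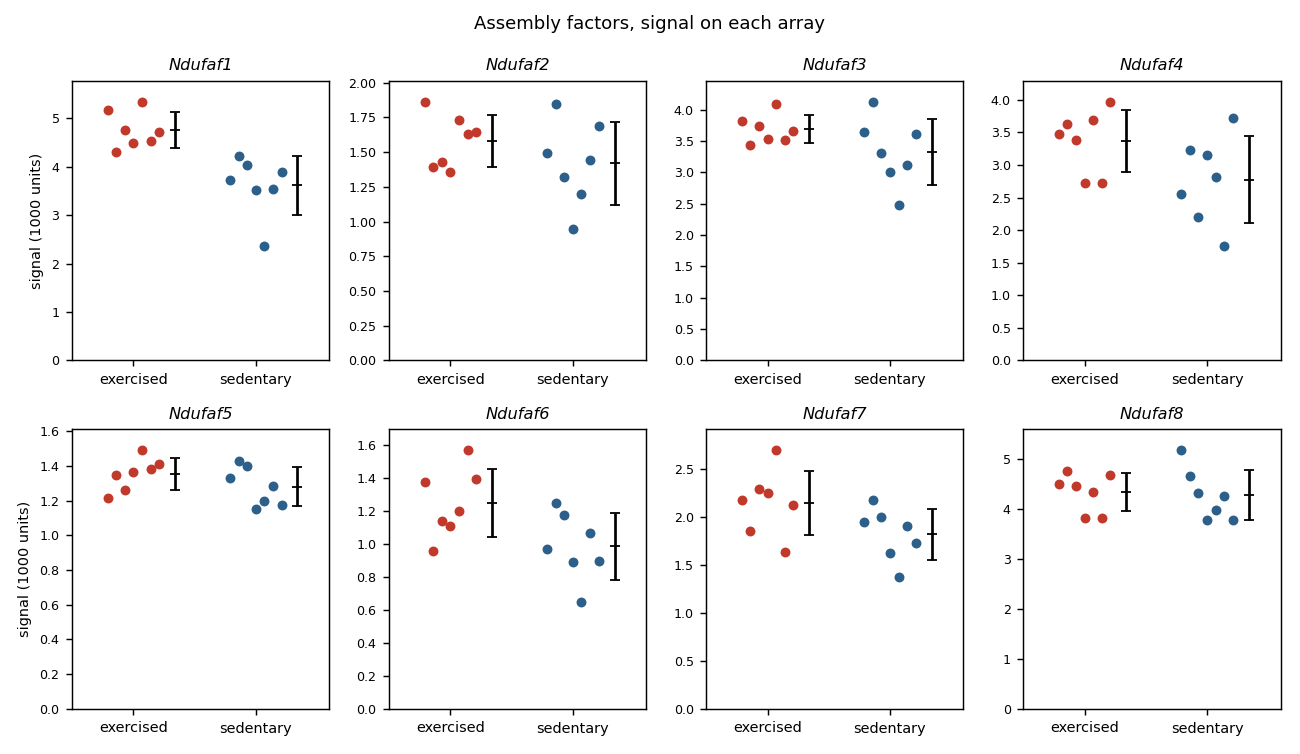
Signal of the 8 assembly factors (in 1000 units, axes from 0) on each of the 7 exercised and 7 sedentary arrays, in replicate order, with the mean and SD in black. Only for Ndufaf1 do the groups stand apart, and for Ndufaf8 the means are 4332 and 4273.

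Of 12 complex I genes without the Nduf prefix that were tested, 1 rose, against 4.0% of all genes tested. It was among the 11 further assembly factors tested (median 0.18), of which 10 had positive differences, as had 45.0% of all genes. The gene was Tmem70, which acts in the assembly of ATP synthase and of complex I. Its signal was 5930 to 8997 (median 6753) in exercised and 4332 to 6132 (median 5416) in sedentary fat (0.39, SE 0.10, limma adjusted p = 0.0403). Leaving out any of 8 single arrays ended that call. The proteins that work with Ndufaf1 on the membrane arm were not called: Ecsit differed by 0.18 (SE 0.10), Acad9 by 0.21 (SE 0.16), Timmdc1 by 0.22 (SE 0.10) and Tmem126b by 0.09 (SE 0.11). Of the 7 subunits encoded in mitochondrial DNA 1 was tested. ND5 had 64898 to 83197 (median 71353) in exercised and 58476 to 74088 (median 63958) in sedentary samples, a difference of 0.17 (SE 0.07, limma adjusted p = 0.177).

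Levels of the roles were also set against each other within each array. The mean log2 level of the 6 core subunits minus that of the 29 accessory subunits was 0.00 to 0.19 on exercised arrays and -0.14 to -0.03 on sedentary arrays. Core minus assembly factors was 2.67 to 3.0 (median 2.94) on exercised and 2.38 to 2.61 (median 2.47) on sedentary arrays. Since different probe sets have no common scale, only the shift between groups has a meaning here, and it was not tested.

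Arrays differed in the same way for most subunits. Among the 7 exercised arrays, array 2 had the lowest signal in 22 of the 35 subunits tested and array 5 the highest in 19. Among the sedentary arrays, array 5 was lowest in 30 of 35. Of the 30 genes that rose, all 30 were above every sedentary array on exercised arrays 1, 3, 5, 6 and 7, while 22 were on array 4 and 21 on array 2. Sedentary array 5 also had the lowest mean log2 level of 6 adipocyte markers, 14.21, against 14.69 to 15.17 on the other sedentary arrays and 14.89 to 15.35 on the exercised ones. It had the highest mean level of macrophage markers (13.34) and of lymphocyte markers (12.60) of all 14 arrays. Without that array 29 members rose, and without sedentary arrays 5 and 7 26 did. The lowest counts, 21 members and 15 accessory subunits, were those without exercised array 5 and without exercised array 7. In bulk tissue, fewer cells of a type and less RNA per cell cannot be told apart.

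Markers of skeletal muscle, a tissue rich in complex I, varied widely between arrays of the same group and were higher on average in exercised fat. Of 22 markers 19 passed the filter, all with positive differences, as had 45.0% of all genes. Of the 19, 0 were called, and 13 were higher at an unadjusted p under 0.05, against 11.3% of all genes. Their summed signal was 11402 to 792252 on exercised and 8796 to 317937 on sedentary arrays, and none was listed at 0, the lowest being 24.0 for Mb (myoglobin). Exercised arrays 1, 4 and 5 had muscle marker means of 8.98, 8.57 and 11.96, within the sedentary range of 8.32 to 12.99. Their core subunit means of 14.31, 14.06 and 14.44 were above the highest sedentary value of 13.79. Sedentary array 3, with the highest muscle mean of its group (12.99), had a core mean of 13.60. With the muscle mean as a covariate the differences of core subunits were 0.52 to 0.76 (median 0.62) and those of accessory subunits had a median of 0.42, but fewer genes passed: 8 of 43, against 1.33% of all genes. These were Ndufv2 (0.66, adjusted p = 0.00546), Ndufs1 (0.76, adjusted p = 0.0165), Ndufa5, Ndufc1, Ndufa9, Ndufb11, Ndufb5 and Ndufa1. The part of muscle in the complex I difference was not tested.

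Of 8 markers of brown and beige fat cells 5 rose in exercised fat, against 4.0% of all genes tested. Among them was Ucp1, the uncoupling protein of heat-producing fat. Cidea (2.21, SE 0.65, limma adjusted p = 0.0614) and Prdm16 (0.39, SE 0.17, limma adjusted p = 0.207) were not called, and Dio2 hardly differed (0.007, SE 0.16). The mean log2 level of the 8 was 11.79 to 13.08 on exercised and 9.0 to 11.71 on sedentary arrays, without overlap, so their part in the complex I difference cannot be told apart from that of the group. Exercised array 2, lowest in core subunits (13.88), was also lowest in these markers (11.79). Sedentary array 7, lowest in the markers (9.0), had a core mean of 13.61, the median of its group. Called by limma were 0 of 6 adipocyte, 0 of 8 macrophage, 0 of 8 lymphocyte and 0 of 1 red blood cell markers. At an unadjusted p under 0.05, 3 adipocyte markers were higher, against 11.3% of all genes, and 1 macrophage marker was lower, against 10.5%. All 6 adipocyte markers had positive differences (median 0.22), and all 8 macrophage (median -0.20) and all 8 lymphocyte markers (median -0.63) had negative ones. The summed macrophage signal was 81272 to 105768 on exercised and 85556 to 121375 on sedentary arrays, and the summed lymphocyte signal was 2536 to 39008 on exercised and 3022 to 77428 on sedentary arrays. The part of these cell types in the complex I difference was not tested.

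**Figure D4:**
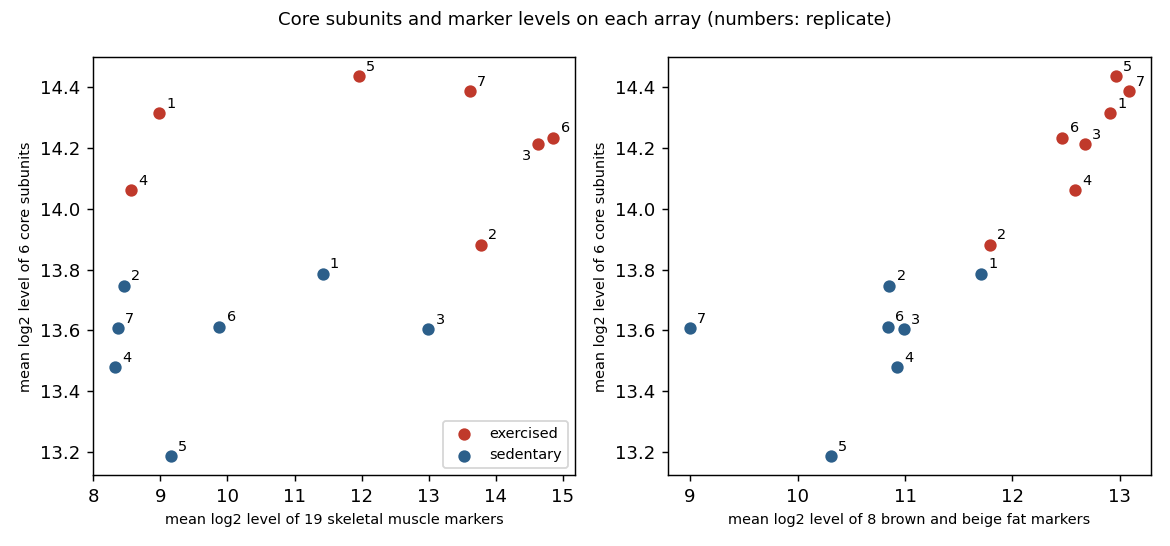
Mean log2 level of the 6 core subunits on each array (vertical axes) against the mean log2 level of 19 skeletal muscle markers (left) and of 8 brown and beige fat markers (right), with replicate numbers. Exercised arrays 1, 4 and 5 have muscle levels in the sedentary range and core levels above every sedentary array. The groups are separate along the brown and beige fat axis.

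Next to complex I in the chain, all 14 genes of complexes II and III with cytochrome c rose (median 0.61), against 4.0% of all genes tested. Each array's mean log2 level of the 43 Nduf genes minus that of these 14 was -1.15 to -0.96 on exercised and -0.94 to -0.79 on sedentary arrays. The 43 include 8 assembly factors, whereas the 14 include none. Median differences were 0.62 for core subunits, 0.46 for accessory subunits and 0.20 for assembly factors. Of 7 genes used to gauge mitochondrial content (median 0.15) 3 rose: the citrate synthase gene Cs (0.59, SE 0.12), Vdac1, a pore of the outer membrane (0.53, SE 0.13), and the chaperone Hspd1 (0.31, SE 0.08). The single-stranded DNA-binding protein gene Ssbp1 differed by 0.15 (SE 0.10), the import receptor Tomm20 by 0.05 (SE 0.05), the mitochondrial transcription factor Tfam by -0.005 (SE 0.08) and the mitochondrial DNA polymerase gene Polg by 0.02 (SE 0.09). No test was made between these lists and complex I.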

How the data were processed

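The deposited values are linear intensity signals of 45101 probe sets on 14 Affymetrix arrays. Per the submitters' processing notes MAS5 made them, and its settings are stated in no source at hand. Array medians lay between 531.3 and 617.4, and the number of arrays limits precision. Values were taken as log2(signal + 46.7), the 10th percentile of all values, so differences of weak genes are understated. Probe sets with a mean under 389.7, the 40th percentile of means, and those without a single symbol were left out, and symbols were updated through Entrez identifiers (34741 of 34945 matched, GRCm38.p6). Of several probe sets of a gene, the one with the highest mean was kept. The exercised and sedentary groups were tested in limma 3.58.1 under R 4.3.3 (two-sided, eBayes with a trend, Benjamini-Hochberg adjustment over 12945 genes). On simulated data for this comparison with 200 of 12945 genes changed, 46% of changes of 0.5 and 80% of changes of 1 on the log2 scale were recovered, and 7.35% of calls were false. Simulated noise was independent between genes and arrays, whereas these arrays shifted many subunits together, so the shares may not hold for these data.

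Members, lists and tests were chosen with earlier results of these data known. Genes given in depth were the core subunits, the assembly factors, the 5 accessory subunits with the largest differences, any with a negative one, and Ndufa4 with Ndufa4l2; other probe sets were given where their call or sign differed. The lists were other complex I genes, complexes II and III, mitochondrial content and markers of muscle, brown and beige fat cells, adipocytes, macrophages, lymphocytes and red blood cells. Alternatives were other normalisations, pseudocounts, filters and probe sets, no variance trend, array weights, covariates, a replicate block and left-out arrays. No label states that same-numbered samples are paired, and the main test did not pair them. Deviations of same-numbered arrays from their group means correlated at -0.425 to 0.381, above 0.1 in 3 of 7 pairs. These values do not decide whether the numbers pair the samples.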

Additional observations from a re-analysis of the deposited data

Results flagged for a closer look

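On sedentary array 5 the signal of 6 members lay far below the other 6 sedentary arrays: 2371 for Ndufaf1, 10318 for Ndufb3, 18862 for Ndufb9, 9476 for Ndufs3, 7177 for Ndufs7 and 12726 for Ndufv3. In each the gap to the next array was a share of the group's range above Dixon's 95% critical value, which chance passes in about 1 in 20 groups. In all 92 groups of 7 values were examined, which share their arrays. Without that array 29 members rose.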

How the results depend on the processing

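In 870 values of the 30 genes that rose, over 29 alternatives, all 870 were positive and 149 lost the call; Ndufs1, Ndufv2, Ndufa5, Ndufb11 and Ndufc1 passed in every alternative run. With the replicate block 7 members (3 core, 4 accessory and 0 assembly) were called, with 0 other complex I genes and 161 genes in all. No label states that its numbers pair the samples, and 3 of 7 exercised arrays correlated best with their own number. With the muscle covariate 8 members (2, 6 and 0 by role), 0 other complex I genes and 209 genes in all were called. With the Gapdh 3′ minus 5′ signal, a measure of RNA integrity, as a covariate, 18 members (5 core, 13 accessory, 0 assembly; Ndufs8 was lost), 0 other complex I genes and 398 genes in all were called; that measure was -0.49 to -0.34 on exercised and -0.53 to -0.33 on sedentary arrays. Called assembly factors were 0 without the low-signal filter or without the variance trend, and 2 with the mean of all probe sets. Other complex I genes were 0 without the filter, without the trend, with array weights, with the weakest passing probe set (22 members, 5 core and 16 accessory, and 418 genes in all) and without sedentary arrays 5 and 7. Leaving out 1 array gave 21 to 29 members, 6 core, 15 to 23 accessory, 0 to 1 assembly, 0 to 1 other complex I genes and 402 to 853 genes in all, with medians of 0.58 to 0.67, 0.40 to 0.50 and 0.15 to 0.25 for core, accessory and assembly genes. The sign turned for Ndufb2 with its weakest passing probe set (-0.056) and for Ndufaf8 with array weights (-0.027), with the muscle covariate (-0.034) and without sedentary arrays 5 and 7 (-0.03); leaving out 1 array gave -0.005 to 0.07 for Ndufaf8. The causes were not tested.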
